A study of Mus musculus with 46 samples.

Results

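The genes described here are 33 mouse genes of fatty acid oxidation together with targets of the nuclear receptor PPAR alpha. They were chosen by symbol, with earlier results of these data known. All 33 were found among the 45777 gene symbols of each of the 5 bulk RNA-seq count tables. The study compared the intestinal actions of metformin, a biguanide used against type 2 diabetes, and imeglimin, a structurally related tetrahydrotriazine. Male C57BL/6J mice of an age not given in the labels served in 2 experiments. In the acute experiment colon was taken 6 h after a single oral dose of 600 mg/kg of either drug, or from controls. In the chronic experiment either drug was given at 3 mg/mL in drinking water for 4 weeks, with colon and 3 stretches of small intestine (proximal, middle, distal) taken from treated and control mice. This gave 15 groups of 3 libraries each. Nothing in the labels tells whether replicates were separate animals or whether segments shared mice, so each p-value measures only the spread between these libraries, which may be technical. What the controls received is not given in the labels.

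Fatty acids are activated to acyl-CoA esters and carried into mitochondria as carnitine esters, where repeated cycles of beta-oxidation shorten them to acetyl-CoA. The electron transfer flavoprotein passes the electrons of the first step of each cycle to the respiratory chain, and peroxisomes shorten very long and branched chains by a separate set of enzymes. PPAR alpha, activated by fatty acids, induces many of these genes in liver and in the absorptive epithelium of the gut, where dietary fat is a main source of its ligands.

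The libraries held 31606797 to 47324301 counts. Counts of each gene were scaled by library size and TMM factors and are given as CPM, counts relative to a common library size, which compare a gene across libraries but not one gene with another. A gene was called higher or lower at an adjusted p under 0.05 in edgeR's quasi-likelihood test, adjusted by Benjamini-Hochberg over all genes tested in the table. Fold changes are log2 values with the standard error (SE) of the fit. The 3 comparisons in a table shared libraries: both drugs were set against the same 3 controls. Some libraries stood apart in tissue markers. In chronic colon, 9 pancreatic acinar markers summed to 24300 CPM in control replicate 3 and to between 192 and 310 CPM in the other 8 libraries. In acute colon, 9 smooth muscle markers summed to 1580 CPM in metformin replicate 2 and to between 4110 and 6620 CPM in the others. Differences from other replicates of the group were also large in control replicate 1 of distal small intestine.

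**Figure D1:**
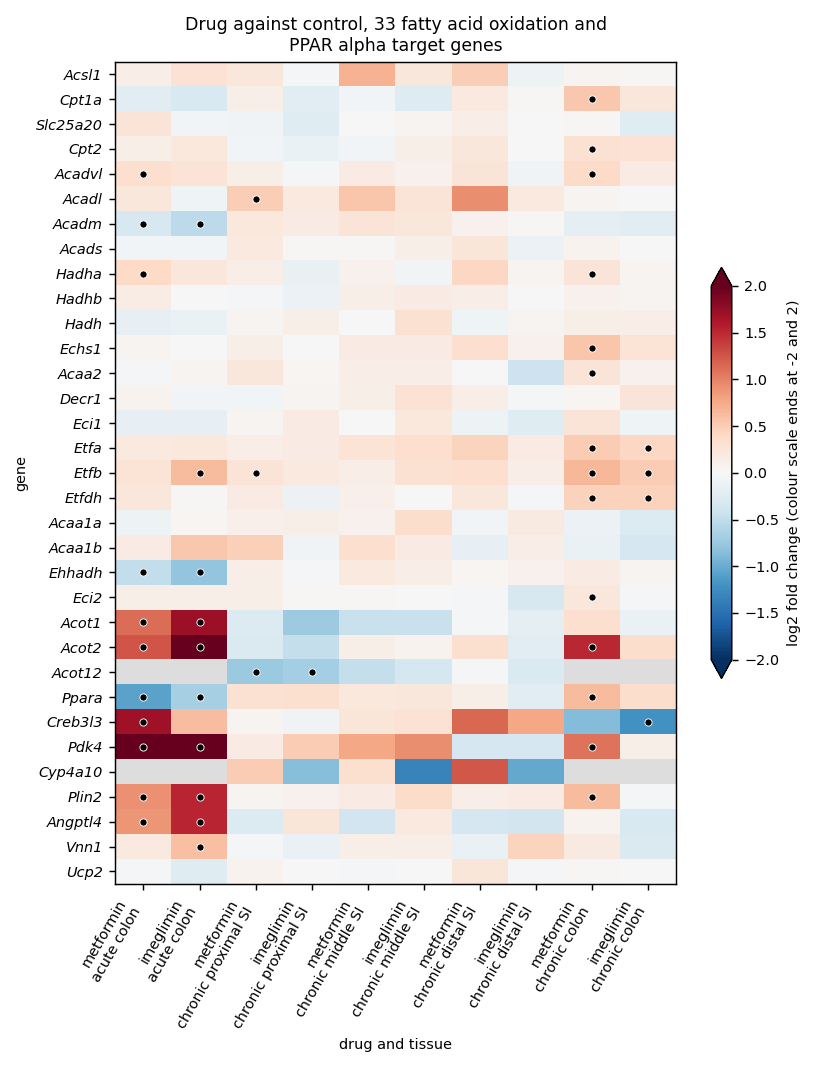
Colour gives the log2 fold change of each of the 33 genes (vertical axis) against control for each drug and tissue (horizontal axis), red for higher and blue for lower. Dots mark adjusted p under 0.05 and grey cells genes with too few counts to test. The strongest colours stand in acute colon, where Pdk4, Acot1, Acot2, Plin2 and Angptl4 were higher with both drugs.

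Before the drugs are considered, the control libraries of the chronic experiment show where along the gut these genes were used. Scaled together over the 36 chronic libraries, more members fell than rose at each of the 3 steps from proximal small intestine to colon, and the step from distal small intestine to colon held the most calls. There, 22 of 33 members were lower and 4 higher in colon, where 45% of all genes tested were called, 21.4% higher and 23.6% lower. The median log2 difference was -0.51 for the members and 0.00 for all genes. From proximal to middle small intestine 1 member was higher and 9 were lower (6.71% of all genes were called, 2.33% higher and 4.37% lower), and from middle to distal 1 was higher and 9 lower (9.97%, with 3.32% higher and 6.65% lower).

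Acot12, a cytosolic acetyl-CoA thioesterase, was present at 140, 114 and 123 CPM in the 3 proximal control libraries, 59.9, 61.8 and 90 in the middle, 0.569, 3.6 and 4.25 in the distal, and 0, 0 and 0.186 in colon. No 2 segments overlapped, and the gene was already low in the distal segment (middle to distal log2 difference -4.68, SE 0.47, edgeR adjusted p = 7.39e-08). Creb3l3, a membrane-bound transcription factor of enterocytes and liver that acts together with PPAR alpha, had 599, 730 and 729 CPM proximally, 30, 125 and 198 distally, and 6.27, 6.04 and 7.67 in colon. The distal value of 30 came from control replicate 1, yet the distal and colon libraries did not overlap (log2 difference -4.14, SE 0.41, edgeR adjusted p = 2.24e-09).

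Vnn1, the pantetheinase that releases cysteamine, fell at the border to colon. It stood at 94.3, 170 and 186 CPM in the distal and at 1.2, 1.28 and 1.06 in the colon controls (log2 difference -6.99, SE 0.26, edgeR adjusted p = 2.29e-18). Angptl4, a secreted inhibitor of lipoprotein lipase, averaged 81.6 ± 23.4 CPM (SD, n = 3) distally and 4.05 ± 0.342 in colon. Ppara itself averaged 127 ± 14.9 CPM proximally, 94.9 ± 16.8 in the middle, 69.9 ± 12.2 distally and 21.9 ± 2.97 in colon. Its colon libraries lay below all libraries of the other 3 segments, and the last step was called (log2 difference -1.68, SE 0.16, edgeR adjusted p = 5.54e-10). These drops are those of the chronic controls. In acute colon controls, given below, Ppara and Vnn1 stood well above their chronic colon levels. Cyp4a10, a fatty acid omega-hydroxylase and classical PPAR alpha target, averaged 9 ± 1.38 CPM proximally and had no count in the 3 colon controls.

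A few members ran the other way. The 4 that were higher in colon than in distal small intestine were Cpt1a, Slc25a20, Acads and Plin2. With the replicate block Acads missed the threshold (edgeR adjusted p = 0.0547). Cpt1a, the enzyme that forms the carnitine esters and sets the pace of mitochondrial entry, averaged 210 ± 20.9 CPM distally and 307 ± 35.7 in colon (log2 difference 0.55, SE 0.13, edgeR adjusted p = 0.000866). Plin2, a lipid droplet coat protein, averaged 55.8 ± 4.39 CPM distally and 129 ± 14.9 in colon (log2 difference 1.21, SE 0.12, edgeR adjusted p = 3.43e-09). Leaving out all libraries of 1 replicate number left 3 to 7 called members for middle against proximal, 4 to 7 for distal against middle, and 19 to 22 for colon against distal, of 10, 10 and 26. In such bulk tissue, fewer cells of a type and less RNA per cell cannot be told apart.

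**Figure D2:**
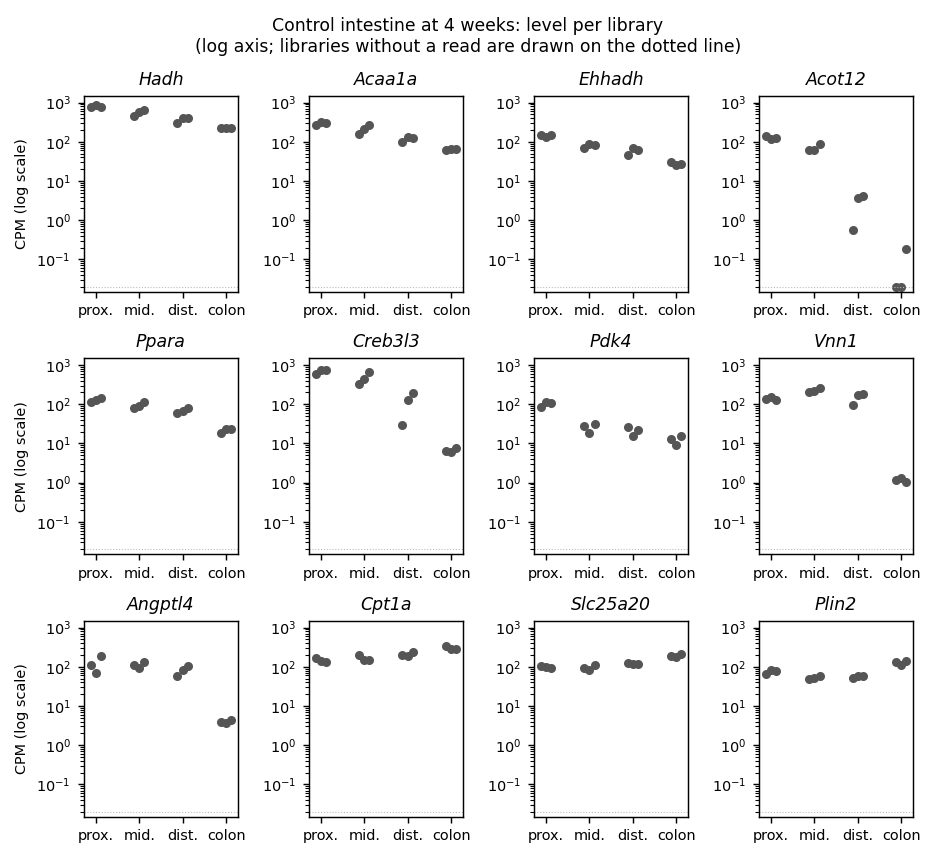
Points are the CPM (log axis) of the 3 chronic control libraries in 3 segments of small intestine and in colon for 12 of the genes. Acot12, Creb3l3, Vnn1 and Angptl4 fall to near or below 10 CPM in colon, while Cpt1a, Slc25a20 and Plin2 are highest there.

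In acute colon, metformin raised 8 and lowered 3 of the 31 members tested, where 19.7% of all 18294 genes were called, 11.3% higher and 8.37% lower. Acot12 and Cyp4a10 had too few counts to test there. The median log2 fold change of the members was 0.15 against -0.04 over all genes. Imeglimin raised 7 and lowered 3 members, where 33.3% of all genes were called, 18.1% higher and 15.1% lower, with a median of 0.05 against -0.03. The share of members called was thus above the background for metformin and near it for imeglimin. Since the members were chosen with earlier results of these data known, such shares, here and below, are only descriptive. The thioesterases Acot1 and Acot2 and the PPAR alpha targets Pdk4, Plin2 and Angptl4 were higher with both drugs, while Ppara, Ehhadh and Acadm were lower with both.

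Pdk4, the kinase that inhibits pyruvate dehydrogenase and so favours fatty acid over glucose oxidation, was at 47.4, 18 and 25.3 CPM in controls, 200, 189 and 139 with metformin, and 130, 152 and 134 with imeglimin. Every treated library exceeded every control. The log2 fold change was 2.54 (SE 0.29, edgeR adjusted p = 0.0003) with metformin and 2.2 (SE 0.29, edgeR adjusted p = 0.000326) with imeglimin. Plin2 had 82.8, 80.6 and 76.9 CPM in controls, 169, 168 and 115 with metformin and 206, 218 and 268 with imeglimin. The 3 groups did not overlap, with imeglimin highest. Plin2 rose by 0.91 (SE 0.15, edgeR adjusted p = 0.0022) with metformin and by 1.53 (SE 0.15, edgeR adjusted p = 7.51e-05) with imeglimin.

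Acot1 and Acot2 encode cytosolic and mitochondrial thioesterases that cleave long-chain acyl-CoA back to free fatty acid. Acot2 had 9.04, 5.84 and 7.42 CPM in controls, 18.2, 22.8 and 12.1 with metformin, and 32, 44.2 and 46.7 with imeglimin. Again no group overlapped another. The log2 fold change was 1.25 (SE 0.24, edgeR adjusted p = 0.00443) with metformin and 2.46 (SE 0.24, edgeR adjusted p = 6.67e-05) with imeglimin. Acot1 averaged 4.51 ± 1.13 CPM (SD, n = 3) in controls, 9.73 ± 2.49 with metformin (log2 fold change 1.11, SE 0.23, edgeR adjusted p = 0.00784) and 14.7 ± 2.63 with imeglimin (1.71, SE 0.24, edgeR adjusted p = 0.000456). In the annotation's longest coding transcripts, 33.2% of the 50-base stretches of Acot1 also occur in other genes and 23.9% in Acot2. The sources used here do not say how reads shared by near-identical genes were assigned, so the split between Acot1 and Acot2 is uncertain.

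Angptl4 averaged 5.55 ± 1.25 CPM in controls, 10.2 ± 2.19 with metformin and 16.1 ± 1.16 with imeglimin, with no overlap between treated and control libraries. Its log2 fold change was 0.88 (SE 0.19, edgeR adjusted p = 0.0092) with metformin and 1.53 (SE 0.19, edgeR adjusted p = 0.00026) with imeglimin. Creb3l3 was at 12.6, 9.35 and 9.23 CPM in controls, 44.2, 37.2 and 19.4 with metformin, and 14.6, 12.1 and 21.1 with imeglimin. The metformin libraries lay above all controls (log2 fold change 1.69, SE 0.29, edgeR adjusted p = 0.00259), whereas the imeglimin libraries overlapped them (0.62, SE 0.29, edgeR adjusted p = 0.122). Adipocytes also express Plin2, Pdk4 and Angptl4. The 10 adipocyte markers summed to 111 to 261 CPM in controls, 62 to 281 with metformin and 185 to 341 with imeglimin, none was at 0 in a whole group, and 0 of 10 were called with metformin and 1 of 10 with imeglimin. Their part in the result was not tested.

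Ppara went down with both drugs, as did Ehhadh and Acadm, while Pdk4, Acot1, Acot2, Plin2 and Angptl4 went up. Ppara was at 115, 127 and 124 CPM in controls, 46.9, 73.4 and 53.5 with metformin, and 76.7, 69.1 and 86.3 with imeglimin. All treated libraries lay below all controls. The log2 fold change was -1.07 (SE 0.15, edgeR adjusted p = 0.000861) with metformin and -0.66 (SE 0.15, edgeR adjusted p = 0.00653) with imeglimin. Ehhadh, the peroxisomal bifunctional enzyme, had 70.7, 63.7 and 63.8 CPM in controls, 40.6, 55.4 and 45.2 with metformin and 39.7, 37.1 and 37.7 with imeglimin. It changed by -0.49 (SE 0.11, edgeR adjusted p = 0.0124) and -0.79 (SE 0.11, edgeR adjusted p = 0.000581), without overlap. Acadm, the medium-chain acyl-CoA dehydrogenase, averaged 129 ± 4.48 CPM in controls, 103 ± 5.76 with metformin and 89.5 ± 2.6 with imeglimin, changing by -0.32 (SE 0.08, edgeR adjusted p = 0.0178) and -0.53 (SE 0.08, edgeR adjusted p = 0.000778). The metformin call was lost without control replicate 3, metformin replicate 1 or metformin replicate 3 (adjusted p = 0.0675, 0.0506 and 0.0546).

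Calls among the mitochondrial enzymes depended on the scaling. Of the 11 genes of the beta-oxidation cycle, metformin raised 2 and lowered 1 (19.7% of all genes were called), and imeglimin lowered 1 (33.3%). Scaled to the sum of 9 epithelial markers, an alternative chosen after seeing the data, metformin raised 0 and lowered 5 (Acadm, Acads, Hadh, Acaa2 and Eci1) and imeglimin lowered 3 (Acadm, Hadh and Eci1). Of all genes 23.9% were then called with metformin and 30% with imeglimin. Hadha, the alpha subunit of the trifunctional protein, rose by 0.40 with metformin (SE 0.11, edgeR adjusted p = 0.0265), a call lost without control replicate 2, control replicate 3 or metformin replicate 2 (adjusted p = 0.0731, 0.105 and 0.0786). Acadvl, the very long-chain acyl-CoA dehydrogenase, rose by 0.34 (SE 0.11, edgeR adjusted p = 0.0421). With the replicate number as a block its adjusted p was 0.0565, and the call was lost in 7 of the 9 fits that left out 1 library (highest adjusted p = 0.14, without control replicate 3). Of the exon bases of Acadvl, 45% overlap Dvl2 on the other strand, and the use of strand in counting was not given in the sources used here. None of the 4 genes of activation and carnitine transport (Acsl1, Cpt1a, Slc25a20, Cpt2) was called with either drug in acute colon, and with the epithelial scaling Cpt1a was lower with metformin (-0.46, edgeR adjusted p = 0.0487).

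With imeglimin, 2 further members were called. Etfb, the beta subunit of the electron transfer flavoprotein, rose from 129 ± 13.9 to 201 ± 20.3 CPM (log2 fold change 0.63, SE 0.11, edgeR adjusted p = 0.0016). Vnn1 rose from 18 ± 2.77 to 27.4 ± 5.5 CPM (0.60, SE 0.18, edgeR adjusted p = 0.0251). That of Vnn1 was lost without control replicate 2 or 3 or imeglimin replicate 1 or 3 (adjusted p = 0.0599, 0.0952, 0.0516 and 0.114). Of the transcript of Etfb, 67.3% of 50-base stretches also occur in other genes, chiefly in the overlapping predicted gene Gm45233, so its counts are uncertain throughout.

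Epithelial markers also differed in acute colon. Of 9, 4 were called higher with metformin and 3 with imeglimin, and their sum ranged from 10800 to 11900 CPM in controls, 12600 to 13700 with metformin and 11200 to 13300 with imeglimin, with none at 0. When libraries were instead scaled to that sum, the median of all genes shifted to -0.28 with metformin and -0.16 with imeglimin. Members called were then 5 higher and 10 lower with metformin, where 23.9% of all genes were called, and 6 higher and 6 lower with imeglimin, where 30% were called. Pdk4, Acot1, Acot2 and Plin2 remained higher and Ppara, Ehhadh and Acadm lower with both drugs. Angptl4 was 0.62 with metformin (edgeR adjusted p = 0.0517), Creb3l3 1.43 (edgeR adjusted p = 0.00769), and Hadha and Acadvl were not called. Without metformin replicate 2, the library low in smooth muscle markers, 10 members were called with metformin in place of 11, 11 with imeglimin in place of 10 and 2 between the drugs in place of 1. Other sums also separated from controls. The 7 small intestinal enterocyte markers summed to 125 to 144 CPM in controls, 73.9 to 113 with metformin and 74.4 to 87.8 with imeglimin. Of 6 tested, 1 was called lower with each drug. With imeglimin 8 fibroblast markers summed to 719 to 873 CPM against 937 to 1160 in controls. The 7 goblet cell markers gave 23000 to 25200 CPM with imeglimin against 19100 to 20700 in controls. The part of these markers in the result was not tested.

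**Figure D3:**
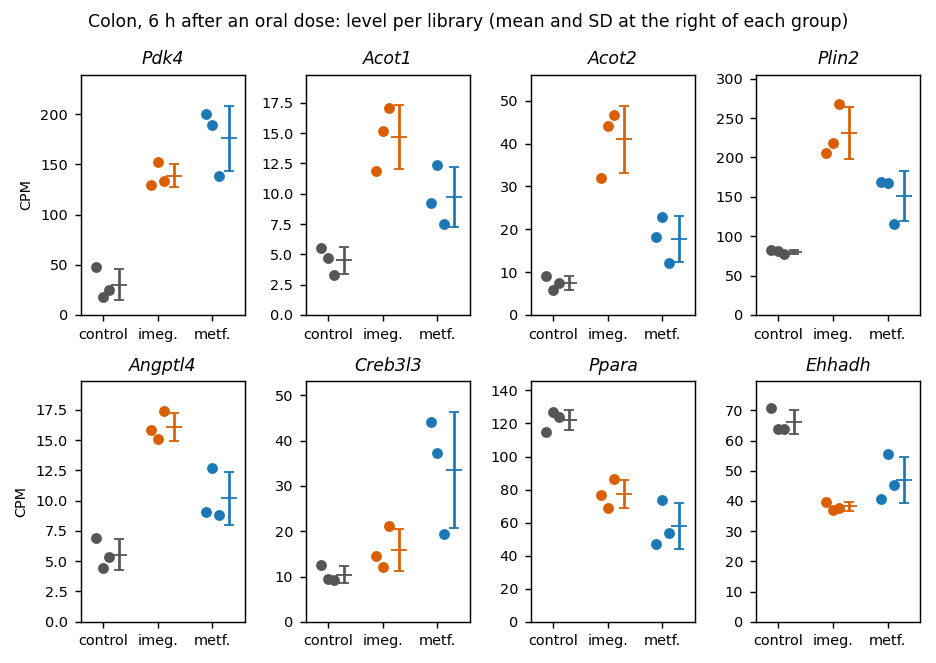
Points are CPM per library in acute colon for control, imeglimin and metformin, with the mean and SD (n = 3) at the right of each group. Pdk4, Acot1, Acot2, Plin2 and Angptl4 are higher and Ppara and Ehhadh lower in all 6 treated libraries than in the 3 controls, while for Creb3l3 the metformin points lie above the controls and the imeglimin points overlap them.

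The promoters of 4 genes that rose together with both drugs are shown, since members that move together may share sequence upstream. Angptl4, which also rose with both, had no entry among the RefSeq promoters. The count tables carry no coordinates; the sequences are the 250 bases before the RefSeq start (GRCm38.p6), 5′ to 3′ on the gene's strand. Capitals mark CCAAT or its reverse complement ATTGG, the CCAAT box bound by the factor NF-Y, and AGGTCA or TGACCT, the core element of nuclear receptors.
Pdk4 (chr6:5496279-5496528, minus strand): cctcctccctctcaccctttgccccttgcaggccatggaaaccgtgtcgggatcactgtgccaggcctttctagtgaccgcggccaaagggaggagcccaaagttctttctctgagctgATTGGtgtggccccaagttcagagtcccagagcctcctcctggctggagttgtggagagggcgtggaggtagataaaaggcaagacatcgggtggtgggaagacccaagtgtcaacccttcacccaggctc
Acot1 (chr12:84009252-84009501, plus strand): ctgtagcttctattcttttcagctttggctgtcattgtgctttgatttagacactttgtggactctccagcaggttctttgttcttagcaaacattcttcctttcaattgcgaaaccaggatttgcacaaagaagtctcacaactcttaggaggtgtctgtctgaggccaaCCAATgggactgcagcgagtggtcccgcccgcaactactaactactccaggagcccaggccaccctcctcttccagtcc
Acot2 (chr12:83987611-83987860, plus strand): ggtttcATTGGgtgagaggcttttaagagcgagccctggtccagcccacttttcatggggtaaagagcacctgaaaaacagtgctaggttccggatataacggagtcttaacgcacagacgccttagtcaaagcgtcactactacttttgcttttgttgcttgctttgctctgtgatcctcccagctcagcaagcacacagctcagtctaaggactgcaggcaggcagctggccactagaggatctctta
Plin2 (chr4:86670060-86670309, minus strand): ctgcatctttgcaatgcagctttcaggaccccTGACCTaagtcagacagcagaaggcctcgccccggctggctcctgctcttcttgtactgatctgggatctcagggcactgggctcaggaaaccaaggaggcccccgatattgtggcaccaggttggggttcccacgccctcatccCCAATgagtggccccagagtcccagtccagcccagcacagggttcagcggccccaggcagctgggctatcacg

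Each of the 4 held a CCAAT box, and Plin2 also a core element. Of the members lower with both drugs, Ehhadh also held a CCAAT box, and Acadm and Ppara did not. Of the 33 members, 28 had an entry in the RefSeq promoter table. CCAAT was found on either strand in 15 of these 28 (53.6%) and in 33.8% of all 32851 promoters of that length, and AGGTCA in 7 (25.0%) against 14.0%. A member counted when any of its promoters matched, whereas the share over all promoters counts each promoter. Acsl1 and Creb3l3 each had a promoter with CCAAT and another without, so this raises the members' share. The direct repeat to which PPAR alpha binds with RXR, searched as 2 copies of AGGNCA in the same direction with 1 base between them, on both strands, was in 0 members and 0.338% of all promoters. The ATF4 element TGATGNAAN was in 1 member, Echs1 (3.57% against 3.44%). A match describes these letters only, and a missing match says nothing about a factor, whose sites may lie outside the window.

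Imeglimin and metformin were compared directly in each of the 5 count tables. The times matched, as did the oral dose in the acute and the concentration in drinking water in the chronic experiment. The amount of drug drunk is not known here. In acute colon 1 of 31 members was called, with 0.645% of all genes called (0.476% higher and 0.169% lower). Acot2 was higher with imeglimin (log2 difference 1.21, SE 0.23, edgeR adjusted p = 0.0449). That call was lost with the replicate number as a block (adjusted p = 0.104) and in 8 of the 9 fits that left out 1 library, where the highest adjusted p was 0.21 without imeglimin replicate 3; without metformin replicate 2 it was 0.0213. Plin2 was 0.62 higher with imeglimin (95% interval 0.29 to 0.95, edgeR adjusted p = 0.0981) and Creb3l3 differed by -1.08 (95% interval -1.70 to -0.46, edgeR adjusted p = 0.118). Neither difference passed the test. For Pdk4 the difference was -0.34 (95% interval -0.94 to 0.26). A p that misses the threshold does not show that the drugs act alike.

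In chronic colon, the members moved mostly up with metformin. After 4 weeks 14 of 31 members were higher and 0 lower, where 19.7% of all 18665 genes were called, 11.6% higher and 8.04% lower, and the median was 0.23 against -0.05 over all genes. Imeglimin raised 3 members and lowered 1, where 13% of genes were called, 7.97% higher and 5.07% lower, with a median of 0.05 against -0.02. All 3 genes of the electron transfer flavoprotein system were higher with both drugs. These were Etfa and Etfb, its subunits, and Etfdh, the oxidoreductase that hands its electrons to ubiquinone.

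Etfa was at 102, 117 and 108 CPM in controls, 150, 161 and 152 with metformin and 142, 148 and 144 with imeglimin. The log2 fold changes were 0.50 (SE 0.071, edgeR adjusted p = 0.00146) and 0.41 (SE 0.071, edgeR adjusted p = 0.00764). Etfb was at 84, 98.8 and 88.9 CPM in controls, 138, 152 and 138 with metformin and 144, 119 and 120 with imeglimin, with log2 fold changes of 0.66 (SE 0.095, edgeR adjusted p = 0.00159) and 0.50 (SE 0.095, edgeR adjusted p = 0.0109). In both genes every treated library exceeded every control. The drugs overlapped each other in Etfb, while in Etfa all imeglimin libraries lay below all metformin libraries. Etfdh was at 87, 85.2 and 80.8 CPM in controls, 109, 115 and 122 with metformin and 113, 116 and 119 with imeglimin. Its log2 fold change was 0.46 with either drug (SE 0.067, edgeR adjusted p = 0.00172 and 0.00424), and the difference between the drugs was within -0.14 to 0.16.

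The 250 bases before the RefSeq starts of these 3 genes (GRCm38.p6), which moved together with both drugs, are given with the same capitals. Each held a CCAAT box on one strand or the other and no AGGTCA core element.
Etfa (chr9:55512244-55512493, minus strand): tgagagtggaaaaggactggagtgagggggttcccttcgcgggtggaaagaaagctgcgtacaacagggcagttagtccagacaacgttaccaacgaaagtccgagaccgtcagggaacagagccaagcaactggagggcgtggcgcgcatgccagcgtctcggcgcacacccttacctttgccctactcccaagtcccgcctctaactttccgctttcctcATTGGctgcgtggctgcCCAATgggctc
Etfb (chr7:43443822-43444071, plus strand): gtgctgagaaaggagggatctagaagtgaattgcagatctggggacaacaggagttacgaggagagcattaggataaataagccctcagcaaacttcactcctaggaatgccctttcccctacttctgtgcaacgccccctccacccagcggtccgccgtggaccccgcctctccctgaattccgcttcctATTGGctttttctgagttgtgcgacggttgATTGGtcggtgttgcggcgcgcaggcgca
Etfdh (chr3:79628768-79629017, minus strand): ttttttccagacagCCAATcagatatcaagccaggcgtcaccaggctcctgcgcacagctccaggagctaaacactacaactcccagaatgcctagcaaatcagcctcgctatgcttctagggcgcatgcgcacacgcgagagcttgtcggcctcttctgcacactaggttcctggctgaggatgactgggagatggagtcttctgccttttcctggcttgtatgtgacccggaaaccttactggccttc

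The other rises with metformin were spread over the remaining groups. In the carnitine shuttle, Cpt1a was at 424, 344 and 356 CPM in controls, 508, 514 and 616 with metformin and 413, 404 and 498 with imeglimin. The metformin libraries lay above all controls (log2 fold change 0.54, SE 0.12, edgeR adjusted p = 0.0111) and the imeglimin libraries overlapped them (0.23, SE 0.12, edgeR adjusted p = 0.234). Cpt2, which reforms acyl-CoA inside the mitochondrion, rose by 0.30 (SE 0.087, edgeR adjusted p = 0.0365). Acsl1 and Slc25a20 were not called.

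Of the 11 mitochondrial beta-oxidation enzymes, 4 were higher with metformin (19.7% of all genes were called) and 0 with imeglimin (13%). Scaled to the epithelial markers, 0 of the 11 were higher with either drug and Acadm was lower with both. Of all genes 28.3% were then called with metformin and 17.9% with imeglimin. Echs1, the short-chain enoyl-CoA hydratase, had 76.9, 93.4 and 82.7 CPM in controls, 121, 126 and 124 with metformin and 111, 98.5 and 98.5 with imeglimin. Metformin raised it by 0.55 (SE 0.085, edgeR adjusted p = 0.00212), and with imeglimin the value was 0.28 (SE 0.085, edgeR adjusted p = 0.0548). Acadvl rose from 165 ± 4.60 to 216 ± 12.4 CPM (0.39, SE 0.074, edgeR adjusted p = 0.00608). Hadha rose by 0.25 (edgeR adjusted p = 0.035), as did Acaa2, the mitochondrial thiolase (0.25, edgeR adjusted p = 0.0357). Among peroxisomal genes Eci2, an enoyl-CoA isomerase, rose from 50.3 ± 1.76 to 59.1 ± 0.959 CPM (0.23, edgeR adjusted p = 0.0321). With the replicate block its adjusted p was 0.0583.

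Several of the smaller changes lay near the threshold. The calls of Cpt2, Hadha and Acaa2 were each lost in 5, and that of Eci2 in 6, of the 9 fits that left out 1 library. Without control replicate 3, the library with acinar transcripts, 10 members were called with metformin, 3 with imeglimin and 1 between the drugs, and the adjusted p was 0.089 for Cpt2, 0.0762 for Hadha, 0.0936 for Acaa2 and 0.0618 for Eci2. The highest adjusted p was 0.113 for Cpt2 and 0.126 for Hadha, in both cases without control replicate 2, which gave 0.0982 for Eci2. Without control replicate 3 all 3 genes of the flavoprotein system remained called with both drugs.

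In chronic colon 5 members grouped as other PPAR alpha targets were tested. Of these, 2 were called with metformin (19.7% of all genes) and 0 with imeglimin (13%). The thioesterase Acot2 also rose with metformin. Acot2 had 8.61, 6.09 and 7.59 CPM in controls, 15, 20.7 and 27.2 with metformin and 10.7, 7.09 and 10.7 with imeglimin. The metformin libraries lay above the other 6 (log2 fold change 1.5, SE 0.24, edgeR adjusted p = 0.00253). Pdk4 was at 16.2, 11.1 and 19.5 CPM in controls, 28.8, 25.8 and 44.4 with metformin, and 16.5, 14.7 and 19.5 with imeglimin. It rose by 1.08 with metformin (SE 0.24, edgeR adjusted p = 0.0123) and was 0.11 with imeglimin. Plin2 had 158, 139 and 176 CPM in controls, 237, 227 and 273 with metformin and 158, 147 and 159 with imeglimin. It rose by 0.64 with metformin (SE 0.1, edgeR adjusted p = 0.00232) and was -0.03 with imeglimin. Angptl4, Vnn1, Ucp2 and Acot1 were not called with either drug.

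Of the transcription factors, Ppara was called higher with metformin and Creb3l3 lower with imeglimin. Ppara was at 22.5, 28.2 and 29.3 CPM in controls, 41.1, 37.9 and 45.5 with metformin and 35.3, 30.5 and 36.6 with imeglimin. All treated libraries lay above all controls, and the log2 fold change was 0.64 (SE 0.12, edgeR adjusted p = 0.00523) with metformin and 0.35 (SE 0.12, edgeR adjusted p = 0.0757) with imeglimin. Creb3l3 was at 7.65, 7.36 and 9.39 CPM in controls, 7.03, 2.2 and 4.25 with metformin and 3.24, 3.78 and 3.51 with imeglimin. It fell with imeglimin (log2 fold change -1.21, SE 0.33, edgeR adjusted p = 0.0415) and was -0.86 with metformin (SE 0.33, edgeR adjusted p = 0.0942). The imeglimin call was lost in 7 of 9 fits that left out 1 library, with adjusted p up to 0.129, reached without control replicate 3.

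Tissue markers moved with these changes. With metformin 6 of 9 epithelial markers were higher (sum 13400 to 14100 CPM against 11000 to 12000 in controls), while 6 of 8 fibroblast markers were lower (701 to 728 against 934 to 1210) and 5 of 9 smooth muscle markers were lower (3490 to 3910 against 4980 to 5230). With imeglimin 2 of 9 epithelial markers were higher (12500 to 14100) and 3 of 8 fibroblast markers lower (711 to 825). No marker of these 3 lists was at 0 in a whole group. Goblet cell markers were also higher, 3 of 7 with metformin (sum 17800 to 24600 CPM against 12900 to 16100 in controls) and 2 of 7 with imeglimin (15800 to 19500). With metformin 2 of 8 endothelial, 2 of 8 neuron and glia and 1 of 7 macrophage markers were lower. Of 3 pancreatic acinar markers tested, 2 were lower with each drug. The part of these markers in the result was not tested. Scaled to the epithelial markers, the median of all genes shifted to -0.29 with metformin and -0.22 with imeglimin, and members called were 5 higher and 3 lower with metformin and 1 higher and 4 lower with imeglimin. Of all genes, 28.3% and 17.9% were then called, so the members' share with metformin no longer exceeded that of all genes. With imeglimin the members' share exceeded that of all genes under neither scaling. With metformin Etfa (0.26), Etfb (0.42), Acot2 (1.26), Pdk4 (0.84) and Plin2 (0.40) remained higher. Creb3l3 (-1.09), Acadm (-0.43) and Acaa1a (-0.35) were called lower. Etfdh was 0.22 (edgeR adjusted p = 0.0663), Ppara 0.40 (edgeR adjusted p = 0.0666), Echs1 0.31 (edgeR adjusted p = 0.0558) and Cpt1a 0.31 (edgeR adjusted p = 0.082). Acadvl was 0.15 (edgeR adjusted p = 0.284), Hadha 0.02 and Acaa2 0.01. With imeglimin Etfdh remained higher (0.26, edgeR adjusted p = 0.0488), while Etfa (0.20, edgeR adjusted p = 0.125) and Etfb (0.30, edgeR adjusted p = 0.109) were no longer called.

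**Figure D4:**
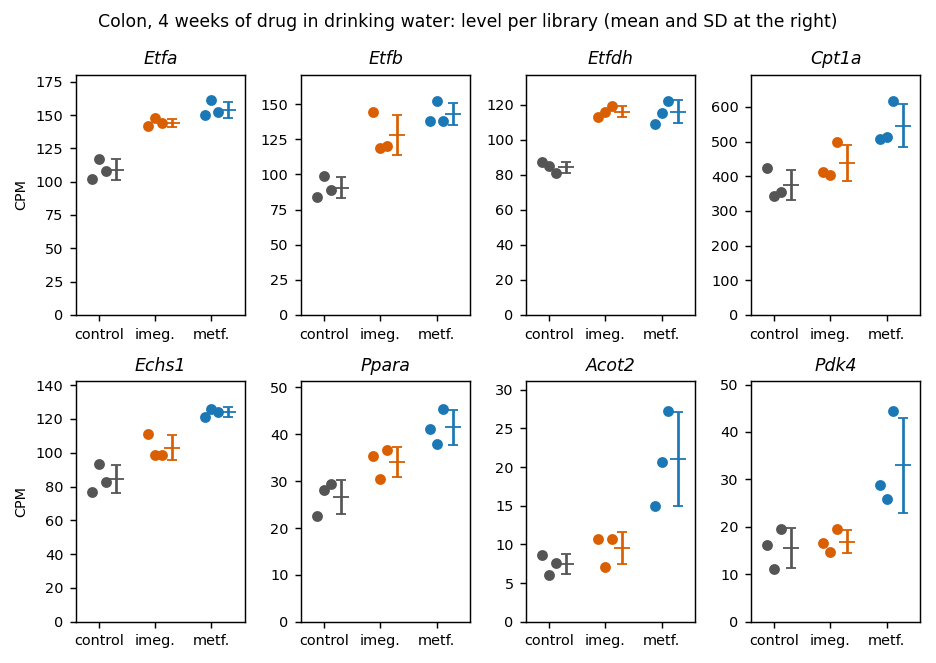
Points are CPM per library in chronic colon for control, imeglimin and metformin, with the mean and SD (n = 3) at the right of each group. Etfa, Etfb and Etfdh are higher in all 6 treated libraries than in the controls, whereas Acot2 and Pdk4 are higher with metformin and overlap the controls with imeglimin.

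Set directly against metformin, imeglimin gave a lower Plin2 in chronic colon (log2 difference -0.67, SE 0.1, edgeR adjusted p = 0.0261), and 1 of 31 members was called, with 0.611% of all genes called (0.145% higher and 0.466% lower). The call was lost without imeglimin replicate 1 or 2 or any of the metformin libraries (adjusted p = 0.0619, 0.134, 0.0574, 0.0626 and 0.106 in that order). For Acot2 the difference was -1.14 (95% interval -1.67 to -0.62, edgeR adjusted p = 0.0612), and for Pdk4 it was -0.97 (95% interval -1.49 to -0.44, edgeR adjusted p = 0.0875). Neither passed the test, although the imeglimin libraries lay below all metformin libraries in both genes. The difference was above 0 in 3 of the 31 members, with a median of -0.19 against 0.02 over all genes.

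Whether a drug's effect differed between the 2 colon experiments was tested over the 18 colon libraries as the difference of the log2 fold changes, chronic minus acute. Route, dose and duration differ together and cannot be told apart. With metformin the difference was called for 6 of 31 members, 4 higher and 2 lower, where 6.22% of all genes were called (3.9% higher and 2.32% lower). With imeglimin it was called for 10, 3 higher and 7 lower, where 16.3% were called (8.72% higher and 7.56% lower). Ppara differed with both drugs, by 1.75 with metformin (SE 0.2, edgeR adjusted p = 0.000265) and by 1.04 with imeglimin (SE 0.2, edgeR adjusted p = 0.00244). It was lower than control after the single dose and higher, or not called, after 4 weeks. The control levels of Ppara were themselves apart, at 122 ± 6.09 CPM in acute and 26.7 ± 3.66 in chronic colon. The 2 tables were scaled separately, with TMM factors between 0.898 and 1.14 over all libraries. Why the control levels differed was not tested.

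The targets that imeglimin raised after the single dose stood near control after 4 weeks. The difference was -1.53 for Plin2 (SE 0.19, edgeR adjusted p = 0.000112), -2.08 for Acot2 (SE 0.36, edgeR adjusted p = 0.00127), -1.82 for Acot1 (SE 0.33, edgeR adjusted p = 0.00155), -1.82 for Angptl4 (SE 0.35, edgeR adjusted p = 0.00275) and -2.06 for Pdk4 (SE 0.41, edgeR adjusted p = 0.00315). With metformin Acot2 and Plin2 were higher in both experiments and their difference was not called. Pdk4 differed by -1.43 (SE 0.41, edgeR adjusted p = 0.0461) and Creb3l3 by -2.53 (SE 0.47, edgeR adjusted p = 0.00525). Leaving out all libraries of 1 replicate number left 1 or 2 called members with metformin and 5 to 8 with imeglimin. Ppara remained called in each of these fits with both drugs, as did Plin2, Acot2, Pdk4 and Ehhadh with imeglimin. The metformin difference of Pdk4 was lost in all 3 (adjusted p = 0.0829 to 0.209), and that of Creb3l3 in 2, without replicate 2 or 3 (0.0549 and 0.0909).

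**Figure D5:**
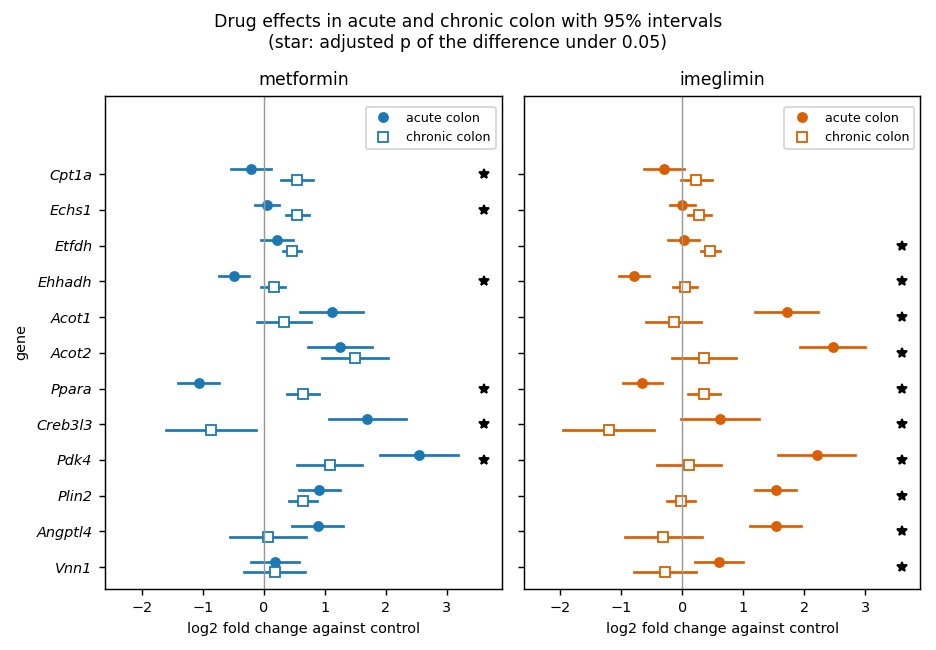
Log2 fold changes against control with 95% intervals in acute colon (filled circles) and chronic colon (open squares) for metformin and imeglimin. Stars mark genes whose difference between the experiments had an adjusted p under 0.05, and Ppara lies below 0 in acute and above 0 in chronic colon with both drugs.

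In the small intestine few members were called, and how readily a change could be detected differed between its segments, as given below. In proximal small intestine metformin raised 2 of 33 members and lowered 1 (4.11% of all 17295 genes were called, 1.65% higher and 2.46% lower), with a median of 0.11 against -0.01 over all genes. Imeglimin lowered 1 (1.16% of genes were called, 0.393% higher and 0.763% lower), with a median of -0.01 against 0.00. Acadl, the long-chain acyl-CoA dehydrogenase, had 122, 113 and 111 CPM in controls, 162, 157 and 169 with metformin and 133, 130 and 136 with imeglimin. The 3 groups did not overlap, and the log2 fold change was 0.49 with metformin (SE 0.061, edgeR adjusted p = 0.00753) and 0.20 with imeglimin (SE 0.061, edgeR adjusted p = 0.124). Acadl was 0.55 with metformin in the middle (edgeR adjusted p = 0.212) and 0.93 in the distal small intestine (edgeR adjusted p = 0.108), in each case with all treated libraries above all controls. In chronic colon it was 0.05.

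Acot12 was lower with both drugs in proximal small intestine. It had 121, 97.5 and 105 CPM in controls, 76, 64.5 and 53 with metformin and 74.7, 70.8 and 56.5 with imeglimin. Controls and treated libraries did not overlap, and the log2 fold change was -0.74 (SE 0.14, edgeR adjusted p = 0.02) with metformin and -0.68 (SE 0.14, edgeR adjusted p = 0.0451) with imeglimin. The metformin call was lost without control replicate 1, metformin replicate 2 or metformin replicate 3 (adjusted p = 0.0601, 0.0515 and 0.078). The imeglimin call was lost in 7 of 9 such fits, with adjusted p up to 0.151 without imeglimin replicate 2. Etfb rose with metformin from 96.9 ± 4.84 to 115 ± 4.46 CPM (0.25, SE 0.061, edgeR adjusted p = 0.0451). That call was lost with the replicate block (adjusted p = 0.0601) and in all 9 fits that left out 1 library (0.0542 to 0.162).

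Cyp4a10 separated the drugs in proximal small intestine. It was at 8.59, 8.25 and 6.36 CPM in controls, 11.1, 10.6 and 11.4 with metformin, and 3.78, 3.4 and 5.76 with imeglimin. The 3 groups did not overlap, metformin being highest and imeglimin lowest. Neither drug passed the test against control (0.51, edgeR adjusted p = 0.143, and -0.85, edgeR adjusted p = 0.0606). The difference between the drugs did (-1.36, SE 0.19, edgeR adjusted p = 0.0123), as 1 of 33 members where 1.09% of all genes were called, 0.659% higher and 0.434% lower. It was lost without imeglimin replicate 1, metformin replicate 1 or metformin replicate 3 (adjusted p = 0.0574, 0.0549 and 0.0745). Of the 50-base stretches of Cyp4a10, 30.5% occur in other genes, chiefly Cyp4a32 and Cyp4a31. With metformin 8 of 9 smooth muscle markers were lower in this segment (488 to 723 CPM against 879 to 1130 in controls and 1030 to 1260 with imeglimin), as were 4 of 8 fibroblast, 3 of 8 T and NK cell, 3 of 7 macrophage and 2 of 8 B and plasma cell markers. Between the drugs, 9 of 9 smooth muscle markers were higher with imeglimin. None of these markers was at 0 in a whole group, and their part in the result was not tested.

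In middle and distal small intestine edgeR called 0 of 33 members in all 6 comparisons. Of all genes, 0.34% were called with metformin and 0.0279% with imeglimin in the middle, 0.625% and 0.0219% in the distal segment, and 0% and 0.0494% between the drugs. At an unadjusted p under 0.05 there were 6 members with metformin, 8 with imeglimin and 3 between the drugs in the middle, and 4, 2 and 7 in the distal segment. DESeq2 called 4, 2 and 1 in the middle and 1, 0 and 0 in the distal segment. The shares of all genes at an unadjusted p under 0.05 and with DESeq2 are not given here. These counts therefore cannot be set against a background. Pdk4 in the middle segment had 26.4, 17 and 28.9 CPM in controls, 44.8, 29.4 and 50.3 with metformin and 42.5, 37.3 and 57.9 with imeglimin. All treated libraries exceeded all controls (0.78, edgeR adjusted p = 0.272, and 0.93, edgeR adjusted p = 0.135). Acsl1, which activates long-chain fatty acids, averaged 39.5 ± 4.43 CPM in controls and 64.2 ± 10.5 with metformin there (0.70, edgeR adjusted p = 0.0729). Creb3l3 in distal controls ranged from 31.6 to 208 CPM, the lowest in replicate 1, and leaving out that library still gave 0 calls.

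Across the 4 chronic segments together, the effect of metformin differed by segment for 1 member (4.03% of all genes) and that of imeglimin for 1 (2.96%). For Acot2 the metformin log2 fold change was 1.5 in colon, while the proximal, middle and distal segments gave -0.29, 0.12 and 0.32 (F = 11.3, edgeR adjusted p = 0.00482). It was lost without replicate 2 or 3 (adjusted p = 0.107 and 0.366). For Etfdh the imeglimin value was 0.46 in colon, and -0.12, -0.01 and -0.03 in the same segments (F = 10.3, edgeR adjusted p = 0.0115). The latter was lost with the replicate block (adjusted p = 0.0619) and without any 1 replicate number (0.105 to 0.38).

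A list of 85 further genes of the pathway, chosen with earlier results of these data known, was counted in the same fits. In chronic colon 27 of 78 tested were higher and 4 lower with metformin, and 15 higher and 2 lower with imeglimin, where 19.7% and 13% of all genes were called. Scaled to the epithelial markers, 14 were higher and 8 lower with metformin and 7 were higher and 7 lower with imeglimin, where 28.3% and 17.9% of all genes were called. Phyh, which starts the alpha-oxidation of branched fatty acids, was at 132 ± 1.24 CPM in controls, 240 ± 10.8 with metformin and 188 ± 13.2 with imeglimin. Bdh1, which interconverts ketone bodies, rose by 0.73 with metformin (edgeR adjusted p = 0.000456), and Slc27a4, a fatty acid transporter, by 0.76 with imeglimin (edgeR adjusted p = 0.00275).

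In acute colon 7 of 79 related genes were higher and 11 lower with metformin, and 16 higher and 15 lower with imeglimin. Of all genes 19.7% and 33.3% were called, so both shares were near the background. Scaled to the epithelial markers, 2 were higher and 20 lower with metformin and 11 were higher and 16 lower with imeglimin. Of all genes 23.9% and 30% were then called. Esrra, the estrogen-related receptor of oxidative metabolism, rose by 0.64 (edgeR adjusted p = 0.00258) and 0.90 (edgeR adjusted p = 0.000213), and Lpin2 by 0.81 (edgeR adjusted p = 0.00329) and 1.22 (edgeR adjusted p = 0.00019). Crot, the peroxisomal carnitine octanoyltransferase, changed by -0.65 (edgeR adjusted p = 0.000848) and -0.82 (edgeR adjusted p = 0.000133). In proximal small intestine 6 of 81 were higher and 1 lower with metformin (4.11% of all genes were called), and in distal small intestine metformin raised Acox2 from 11.4 ± 4.52 to 47.9 ± 7.19 CPM (2.07, SE 0.28, edgeR adjusted p = 0.0269).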

How the data were processed

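Bulk RNA-seq was deposited by the authors as 5 tables of whole-number counts per gene symbol, 1 per tissue and experiment, for 45 libraries made with a stranded mRNA kit per the labels' protocols. FastQC, Trimmomatic, HISAT2 and StringTie and the builds mm10 and GRCm39 are named, with no role, in the submitters' processing notes; strand use in counting and the treatment of multiply mapped reads were not given in the sources used here. In the chronic colon data 26 symbols read as dates. A single-cell colon sample without a drug label was not used here.

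Each table was fitted with edgeR 4.0.16 (R 4.3.3; TMM, filterByExpr, quasi-likelihood test over 9 libraries), which tested 17295 to 18665 genes. The depth of 31606797 to 47324301 counts per library leaves replicate spread, not counting, as the main error: replicates differed by a chi-square of 13.4 to 193 per gene. Joint fits covered the 18 colon and the 36 chronic libraries. Alternatives were RLE scaling, no low-count filter (at least 1 read), a replicate block, DESeq2 1.42.0, fits of only the 2 groups compared, and leaving out libraries; scaling to epithelial markers was added after seeing the data. The members and lists were chosen with earlier results of these data known. Any of the 33 members could be named; values per library are given for up to 5 called members each way with the smallest adjusted p and for members whose direction differed, and up to 3 related genes each way are named, and some related genes are not reported here. Batch numbers in the labels equal the replicate numbers, and the labels do not say whether same-numbered libraries were paired. Deviations of same-numbered libraries had a mean correlation of -0.0227 in acute colon, -0.00908, -0.132 and -0.177 in proximal, middle and distal small intestine and 0.0929 in chronic colon, over 9 pairs each. Libraries of other numbers gave 0.0104, 0.00453, 0.0693, 0.0924 and -0.0467 in the same order. The fit was tested on simulated data with 200 changed genes. Sequence overlap was computed with GENCODE M21 transcripts and promoters taken from RefSeq (Python 3.11.15).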

Additional observations from a re-analysis of the deposited data

Results flagged for a closer look

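The effects of a drug in acute and chronic colon were compared by an interaction term over 18 libraries, given as the chronic minus the acute log2 fold change, and 16 such differences passed edgeR's adjusted threshold. With metformin the difference was 0.79 for Cpt1a, 0.54 for Echs1, 0.68 for Ehhadh, 1.75 for Ppara, -2.53 for Creb3l3 and -1.43 for Pdk4. With imeglimin it was 0.47 for Etfdh, 0.86 for Ehhadh, 1.04 for Ppara, -1.82 for Acot1, -2.08 for Acot2, -1.80 for Creb3l3, -2.06 for Pdk4, -1.53 for Plin2, -1.82 for Angptl4 and -0.86 for Vnn1. With the replicate block the Vnn1 difference had an adjusted p of 0.0753. Leaving out all libraries of 1 replicate number ended the calls of Cpt1a, Echs1 and Pdk4 with metformin and of Etfdh and Vnn1 with imeglimin in each of the 3 fits.

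Between the 4 chronic segments, the metformin effect differed for Acot2 (edgeR adjusted p = 0.00482) and the imeglimin effect for Etfdh (edgeR adjusted p = 0.0115), both with the highest value in colon.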

How the results depend on the processing

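Of 110 called member results, 1067 alternative values were computed: 863 kept direction and side of the threshold, 203 kept direction and missed it, and 1 changed sign. The last was Eci2 with metformin in chronic colon, -0.01 when scaled to epithelial markers. RLE scaling ended 0 of the 110 calls, and DESeq2 ended 0 of the 46 for which it was fitted, which leave out the joint comparisons. Scaled to epithelial markers, 8 members were called with metformin in chronic colon in place of 14. DESeq2 called 5 members between the drugs in acute colon in place of 1, in proximal small intestine 6 with metformin in place of 3, 5 with imeglimin in place of 1 and 6 between the drugs in place of 1, in middle small intestine 4, 2 and 1 in place of 0, in distal small intestine 1 with metformin in place of 0, and in chronic colon 7 with imeglimin in place of 4 and 6 between the drugs in place of 1. Fitting only the 2 groups compared gave 0 between the drugs in acute and in chronic colon, 0 with imeglimin and 5 between the drugs in proximal small intestine. Without a count filter 0 were called between the drugs in acute colon, and with RLE scaling 2 in proximal small intestine. The cause was not tested. The share of all genes that DESeq2 called is not given here, so its counts of members have no background beside them.

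The replicate block ended 13 calls. It left 0 members called between the drugs in acute colon, 2 between the drugs in chronic colon and 0 for the imeglimin effect across segments, and moved no other count of members by over 1.5 times.

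Leaving out each library in turn gave 0 to 2 members between the drugs in acute colon, 1 to 2 with metformin, 0 to 1 with imeglimin and 0 to 5 between the drugs in proximal small intestine, 0 to 1 with metformin in middle small intestine, and 0 to 2 between the drugs in chronic colon. Without control replicate 1 of proximal small intestine 5 were called between the drugs, and without metformin replicate 2 of middle small intestine 1 was called with metformin. Counts were 8 to 11 and 9 to 13 with metformin and imeglimin in acute colon and 10 to 15 and 3 to 4 in chronic colon. Leaving out a replicate number gave 1 to 2 for the metformin and 5 to 8 for the imeglimin difference between colon experiments, 0 to 2 and 0 to 0 across segments, and 3 to 7 and 4 to 7 for the 2 steps along the control small intestine.

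The size of change that could be detected differed between tissues. In simulated data with 200 genes changed 2-fold, the comparison of metformin with control recovered 92.5% of them in proximal and 0% in middle small intestine (17295 and 17940 genes), 35.5% in distal small intestine (18233), 36.5% in acute colon (18294) and 14.0% in chronic colon (18665). A lack of calls in middle small intestine is therefore no sign that nothing changed. In the real colon data 19.7% of all genes were called with metformin in either experiment. The adjusted threshold is less strict where more genes change, so the shares recovered do not give the sensitivity there.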

Other observations

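In chronic colon, other related genes separated the drugs. Slc22a5, the carnitine transporter, averaged 34.6 ± 2.03 CPM (SD, n = 3) in controls, 53.8 ± 3.81 with metformin and 37.4 ± 0.638 with imeglimin, and the drugs differed by -0.52 (SE 0.074, edgeR adjusted p = 0.0199). Acox2, the oxidase of branched and bile acid side chains in peroxisomes, averaged 1.26 ± 0.391, 4.59 ± 0.476 and 1.64 ± 0.379 CPM in chronic colon, and the drugs differed by -1.48 (SE 0.26, edgeR adjusted p = 0.0474).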
